A study of Mus musculus with 8 samples.

Results

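The genes described here are 36 named regulators of entry into the cell cycle, taken by symbol from a list chosen with earlier results of these data known. They comprise 20 drivers (cyclins, cyclin-dependent kinases or CDKs, activating E2F factors with their partner Tfdp1, the Cdc25 phosphatases and Skp2), 14 inhibitors (CDK inhibitors, pocket proteins, the E2F factors numbered 4 to 8 and the kinase Wee1) and the homeobox genes Meis1 and Meis2. All 36 were found among the 51826 gene identifiers of the count table. All 36 were also among the 16623 genes with enough counts to be tested.

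Cells leave quiescence when D-type cyclins with CDK4 or CDK6, and then E-type cyclins with CDK2, phosphorylate the pocket proteins (RB1, RBL1 and RBL2) and release E2F factors, which switch on genes for DNA replication. Cyclin A with CDK2 then carries S phase forward and B-type cyclins with CDK1 bring about mitosis. INK4 proteins block CDK4 and CDK6, while p21 and p27 of the Cip/Kip family act mainly on CDK2 complexes. Mouse cardiomyocytes divide in the embryo and largely withdraw from the cell cycle soon after birth.

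The libraries were made from mouse heart of strain C57BL/6, labelled as cardiomyocytes, in 4 groups of 2. The groups were LncSync-/- adults (KO adult), wild-type adults (WT adult), LncSync-/- embryos at e13.5 (KO e13.5) and wild-type embryos at e13.5 (WT e13.5), e13.5 being the embryonic day. LncSync is a long noncoding RNA. Its transcript was not analysed here, so the genotype labels were not checked against it. The labels give no adult age, no sex, no description of the null allele and no statement of separate animals behind the 2 libraries of a group. The p-values therefore measure the spread between these libraries, which may be technical.

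Total counts ran from 16495084 to 20395600 per library, and mitochondrial genes took 22.6% to 28.8% of them in adults and 3.21% to 4.36% at e13.5. Globin genes took at most 0.0136% in adults and 2.89% to 15.5% at e13.5. Ribosomal RNA genes outside the mitochondria took 0.0666% to 0.127% in adults and 4.20% to 10.5% at e13.5. These shares differed together with age and cannot be told apart from it. Levels are CPM, the counts relative to a TMM-scaled library total, on which 3 counts in a library corresponded to 0.103 to 0.207 CPM. The cardiomyocyte gene Tnnt2 (5977 and 6949 CPM in KO adults, 5984 and 6139 in WT adults, 5642 and 1999 in KO e13.5 and 5512 and 2424 in WT e13.5) and the other 9 of 10 cardiomyocyte markers were detected in every group. Of these Myl7, a gene of the atria, reached at most 1.34 CPM in adults. Markers of other cells were detected too. At e13.5 the erythroid and smooth muscle markers were higher in library 1, and the fibroblast markers in library 2, in both genotypes. At e13.5 the log2 CPM of same-numbered libraries correlated across genes with r = 0.960 (KO 1 with WT 1) and 0.954 (KO 2 with WT 2), against 0.918 within KO and 0.913 within WT. Genes are not independent replicates. In bulk RNA, fewer cells of a type cannot be told apart from less RNA per cell.

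**Figure D1:**
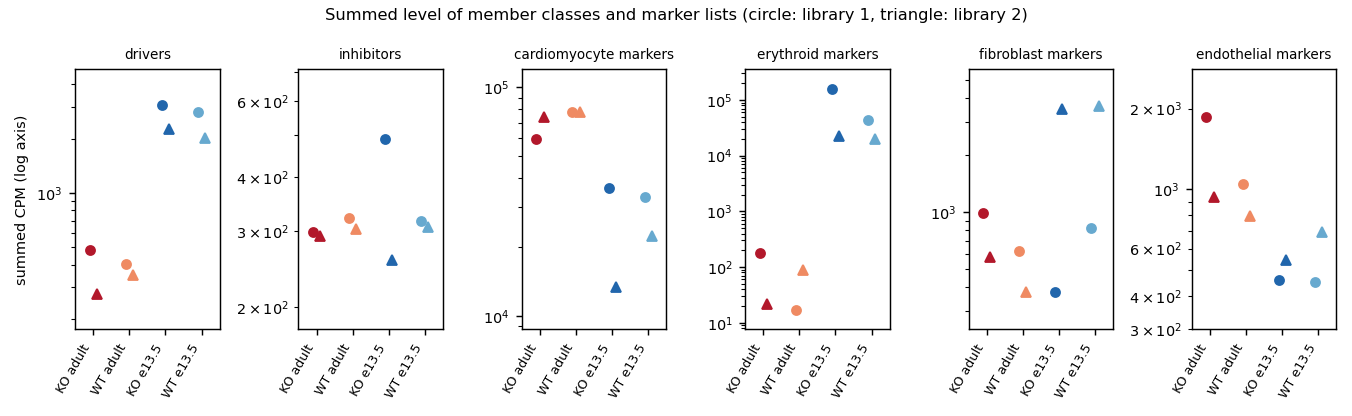
Summed CPM (log axes) of the 20 drivers, the 14 inhibitors and 4 marker lists in each library, by group. The drivers lay at 277 to 484 CPM in adult libraries and at 2004 to 3065 CPM at e13.5, while the inhibitors showed no such gap and the erythroid and fibroblast markers split the e13.5 libraries by number.

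Adult hearts held little of the driver transcripts that embryonic hearts carried. Summed over the 20 drivers, levels were 484 and 277 CPM in KO adults and 402 and 352 CPM in WT adults, against 3065 and 2275 CPM in KO at e13.5 and 2807 and 2004 CPM in WT at e13.5. All 4 adult libraries thus lay far below all 4 embryonic ones. The 14 inhibitors summed to 298 and 293 CPM in KO adults and 322 and 304 CPM in WT adults, against 491 and 257 CPM in KO at e13.5 and 317 and 307 CPM in WT at e13.5, and here adults and embryos overlapped. In edgeR's quasi-likelihood test with Benjamini-Hochberg adjustment over all tested genes, 16 of 20 drivers fell and 0 rose with age in KO, and 15 fell and 0 rose in WT. Among all tested genes 20.9% were called lower and 20.5% higher in KO (41.4% in all), and 21.1% lower and 17.8% higher in WT (38.9% in all). Of the 16623 tested genes, the KO adult libraries lay wholly above the KO e13.5 libraries for 5792 and wholly below for 6294. In WT these counts were 5660 and 6949, so libraries without overlap between the ages were common. Of the 14 inhibitors, 5 rose and 4 fell in KO, and 3 rose and 4 fell in WT. The median log2 ratio of adult over e13.5 was -3.28 in KO and -3.10 in WT for the drivers. It was 0.53 in KO and 0.19 in WT for the inhibitors, and -0.15 in KO and -0.26 in WT over all tested genes. Leaving out WT adult replicate 1 left 4 changed inhibitors in WT in place of 7.

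**Figure D2:**
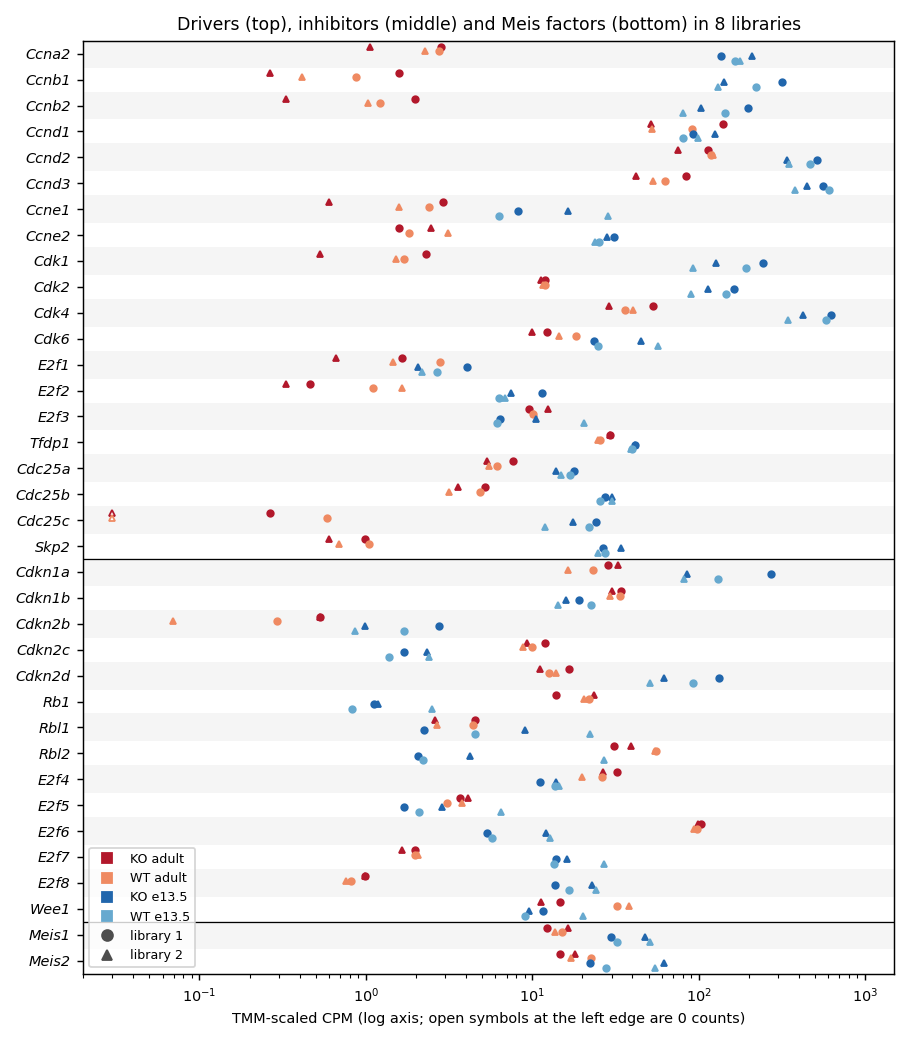
TMM-scaled CPM (log axis) of the 36 members in the 8 libraries, with drivers at the top, inhibitors in the middle and Meis factors at the bottom; colours give the group and symbols the library. Adult values of Ccnb1, Ccnb2 and Cdk1 lie below 3 CPM and embryonic values above 80 CPM, while Rb1, Cdkn2c and E2f6 lie higher in every adult library than in any embryonic one.

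The mitotic drivers were almost absent from the adult libraries. Ccnb1, a B-type cyclin that activates CDK1 (ENSMUSG00000041431, chromosome 13, 100778650 to 100786570), had 1.58 and 0.265 CPM in KO adults and 0.873 and 0.413 CPM in WT adults, against 316 and 142 CPM in KO embryos and 221 and 130.2 CPM in WT embryos. Ccnb1 fell to below 2 CPM in every adult library, with log2 ratios of -7.94 ± 0.93 in KO (adjusted p = 3.62e-04) and -8.06 ± 0.94 in WT (adjusted p = 4.05e-04). Its partner kinase gene Cdk1 (ENSMUSG00000019942, chromosome 10, 69335146 to 69352938) had 2.31 and 0.530 CPM in KO adults and 1.69 and 1.52 CPM in WT adults, against 243 and 126 CPM in KO embryos and 191 and 92.8 CPM in WT embryos. No adult library reached 3 CPM, and Cdk1 fell with log2 ratios of -7.02 ± 0.83 in KO (adjusted p = 3.72e-04) and -6.46 ± 0.81 in WT (adjusted p = 5.00e-04). Ccnb2, the other B-type cyclin of mitosis (ENSMUSG00000032218, chromosome 9, 70407692 to 70421547), had 1.98 and 0.331 CPM in KO adults and 1.22 and 1.03 CPM in WT adults, against 197 and 103 CPM in KO embryos and 143 and 80.6 CPM in WT embryos. Ccnb2 fell with log2 ratios of -7.01 ± 0.86 in KO (adjusted p = 4.24e-04) and -6.62 ± 0.85 in WT (adjusted p = 5.37e-04). In all 3 genes KO adult library 2 was the lowest of the adult libraries, and without KO adult replicate 1 the KO log2 ratio was -9.72 for Ccnb1, -8.42 for Cdk1 and -8.79 for Ccnb2. In both genotypes library 1 exceeded library 2 at e13.5 for these 3 genes, and without WT e13.5 replicate 1 the WT ratio was -5.71 for Cdk1 and -6.01 for Ccnb2. Without KO adult replicate 2 the KO ratio was -7.16 for Ccnb1, -6.31 for Cdk1 and -6.23 for Ccnb2. For Ccnb1 it was -7.23 without KO e13.5 replicate 1, and the WT ratio -8.71 without WT adult replicate 1. The pseudogene Ccnb1-ps matches a Ccnb1 transcript at 99.3% identity over 91.0% of its length, but held at most 0.0689 CPM in any library.

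Cdc25c, a phosphatase that activates CDK1 at mitosis, had 4 and 0 counts in the KO adult libraries and 10 and 0 counts in the WT adult libraries, against 386 and 444 counts in the KO e13.5 libraries and 476 and 348 counts in the WT e13.5 libraries. Library 2 of both adult groups thus gave no count. Cdc25c fell with fitted log2 ratios of -7.23 ± 1.25 in KO (adjusted p = 0.00205) and -5.77 ± 1.13 in WT (adjusted p = 0.00402). The ratio was -6.26 in KO without KO adult replicate 2, -4.83 in WT without WT adult replicate 2 and -5.14 without WT e13.5 replicate 1, and a size cannot be given without library 1 of either adult group, where the remaining adult count is 0.

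Promoter letters of Ccnb1, Cdk1 and E2f8, which fell with age, and of E2f6, which rose, are shown so that the elements known from cell cycle promoters can be compared between them. They cover 150 bases before the transcription start of the first RefSeq entry of the gene on GRCm38.p6, 5′ to 3′ on the gene's strand, with capitals for 3 motifs on either strand. For Ccnb1, Cdk1 and, by a few bases, E2f6 that start lies inside the gene span printed in this text. Part of the stretch then falls within that span. The motifs are the E2F element (TTGGCGC or TTCGCGC), the CHR element (TTTGAA), which is bound by the MuvB complex, and the CCAAT box, which is bound by NF-Y. In Ccnb1 and E2f8 the E2F and CCAAT letters overlap.
Ccnb1 (chr13:100786487-100786636, minus strand): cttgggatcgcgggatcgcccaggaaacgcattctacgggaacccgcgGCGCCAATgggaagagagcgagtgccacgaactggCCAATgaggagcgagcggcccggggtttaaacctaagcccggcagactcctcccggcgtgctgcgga
Cdk1 (chr10:69352913-69353062, minus strand): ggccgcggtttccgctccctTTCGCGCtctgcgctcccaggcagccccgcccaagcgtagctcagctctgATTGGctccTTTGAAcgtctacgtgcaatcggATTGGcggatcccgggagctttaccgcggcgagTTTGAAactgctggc
E2f8 (chr7:48881597-48881746, minus strand): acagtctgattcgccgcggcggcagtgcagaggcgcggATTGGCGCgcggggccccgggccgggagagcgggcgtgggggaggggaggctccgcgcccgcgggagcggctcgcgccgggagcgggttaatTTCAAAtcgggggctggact
E2f6 (chr12:16810815-16810964, plus strand): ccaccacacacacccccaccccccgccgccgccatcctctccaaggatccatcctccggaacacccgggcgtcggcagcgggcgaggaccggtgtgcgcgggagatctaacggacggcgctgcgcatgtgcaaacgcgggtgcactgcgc
The stretch of Cdk1 holds an E2F element, 2 CHR elements and 2 CCAAT boxes, and that of E2f6 none of the 3. RefSeq windows of 300 bases (250 before to 50 after the start) were matched for 27 of the 36 members. The other members are Ccna2, Ccnd1, Ccnd2, Ccne2, Cdc25c, E2f4, E2f5, Rb1 and Wee1. Of those matched, 6 of 15 drivers and 3 of 10 inhibitors held an E2F element in at least one window, against 3.89% of all 32851 windows. The inhibitors with an E2F element were E2f7, E2f8 and Rbl1. A CHR element was found in 5 drivers and 3 inhibitors, against 17.9% of all windows, and a CCAAT box in 10 drivers and 5 inhibitors, against 37.4%. The letters did not follow the direction of change throughout. Cdk4 fell and held none of the 3 motifs, while E2f3 held all 3 and Tfdp1 an E2F element, and neither passed. Rbl2 held a CHR element and rose in KO. Genes with several windows have more chances of a match, and a match of letters is not a bound site.

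**Figure D3:**
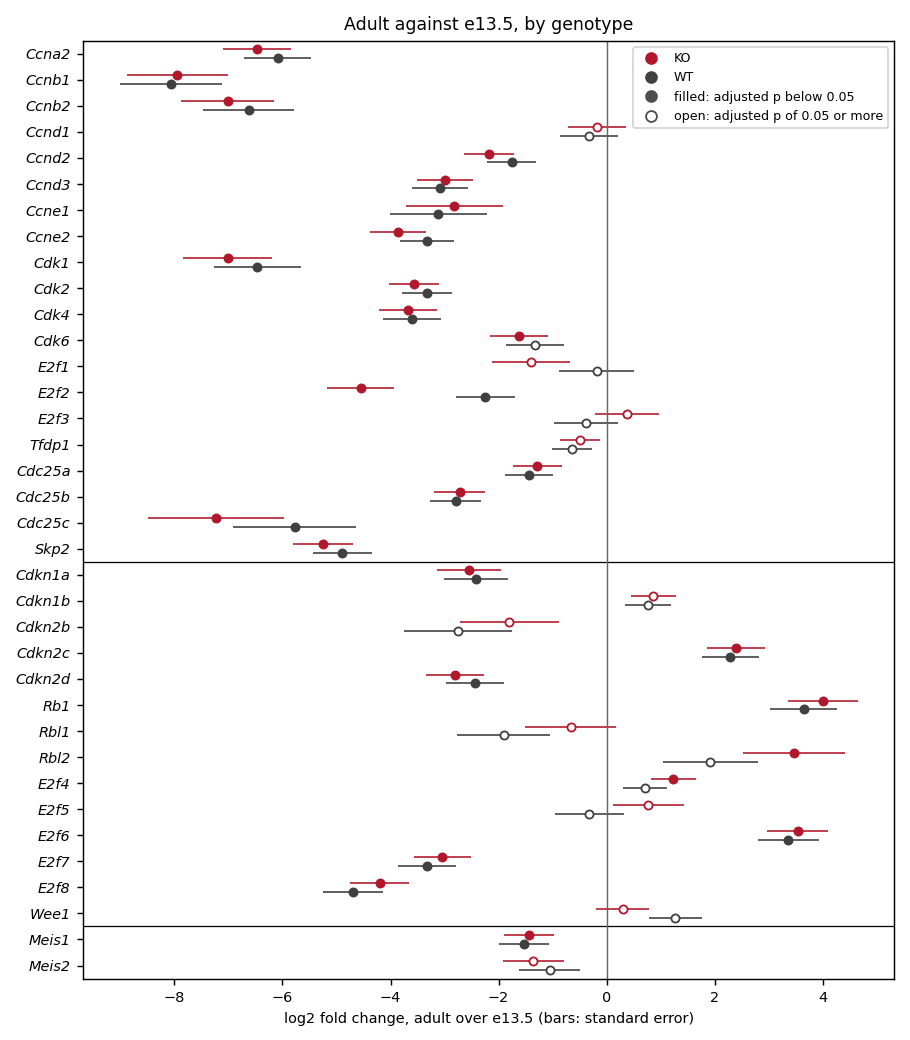
Log2 ratio of adult over e13.5 (x axis; bars are standard errors) for the 36 members in KO and WT, with filled points at an adjusted p below 0.05. Driver points lie left of 0 in WT without exception and in KO except for E2f3, and the inhibitor points lie on both sides.

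The S phase drivers were low in adults as well. Ccna2, the cyclin of S phase and early mitosis (ENSMUSG00000027715, chromosome 3, 36564865 to 36572150), had 2.83 and 1.06 CPM in KO adults and 2.74 and 2.27 CPM in WT adults, against 135 and 210.0 CPM in KO embryos and 165 and 177 CPM in WT embryos. The adult libraries lay below 3 CPM and the embryonic ones above 130 CPM. Ccna2 fell with log2 ratios of -6.47 ± 0.63 in KO (adjusted p = 2.23e-04) and -6.09 ± 0.62 in WT (adjusted p = 2.78e-04). Its p was the smallest of any member in both genotypes. Without KO adult replicate 1 the KO ratio was -7.33. Skp2, the F-box protein that marks p27 for destruction, had 0.988 and 0.597 CPM in KO adults and 1.05 and 0.689 CPM in WT adults, against 26.5 and 34.1 CPM in KO embryos and 27.5 and 24.8 CPM in WT embryos. Skp2 fell with log2 ratios of -5.24 ± 0.55 in KO (adjusted p = 2.61e-04) and -4.89 ± 0.54 in WT (adjusted p = 3.53e-04), and no adult library came near an embryonic one. Cdk2, the partner kinase of cyclins E and A, kept a measurable adult level, with 11.99 and 11.3 CPM in KO adults and 11.99 and 11.6 CPM in WT adults, against 162 and 113 CPM in KO embryos and 146 and 90.5 CPM in WT embryos. The 4 adult values of Cdk2 lay within 1 CPM of each other, and Cdk2 fell with log2 ratios of -3.57 ± 0.46 in KO (adjusted p = 5.31e-04) and -3.32 ± 0.46 in WT (adjusted p = 7.39e-04).

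Of the E-type cyclins, Ccne2 had 1.58 and 2.45 CPM in KO adults and 1.80 and 3.10 CPM in WT adults, against 31.1 and 28.01 CPM in KO embryos and 25.3 and 23.9 CPM in WT embryos. Ccne2 fell with log2 ratios of -3.87 ± 0.52 in KO (adjusted p = 6.12e-04) and -3.33 ± 0.50 in WT (adjusted p = 0.00116), the e13.5 libraries lying close together. Ccne1 had 2.90 and 0.597 CPM in KO adults and 2.39 and 1.58 CPM in WT adults, against 8.25 and 16.5 CPM in KO embryos and 6.27 and 28.3 CPM in WT embryos. At e13.5 library 2 of Ccne1 exceeded library 1 in both genotypes, the opposite of Ccnb1 and Cdk1. Ccne1 fell with log2 ratios of -2.82 ± 0.90 in KO (adjusted p = 0.0308) and -3.12 ± 0.90 in WT (adjusted p = 0.0224), and these calls rested on single libraries. In WT the adjusted p was 0.0882 without WT adult replicate 1, 0.134 without WT adult replicate 2 and 0.115 without WT e13.5 replicate 2, where the ratio was -1.63. In KO it was 0.174 without KO adult replicate 2 and 0.0792 without KO e13.5 replicate 2, and without KO adult replicate 1 the ratio was -4.35. With a replicate term for each age the adjusted p was 0.057 in KO and 0.117 in WT.

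The G1 drivers split by gene. Cdk4, the kinase that D-type cyclins activate (ENSMUSG00000006728, chromosome 10, 127063534 to 127067920), had 53.5 and 28.97 CPM in KO adults and 35.9 and 40.3 CPM in WT adults, against 628 and 423 CPM in KO embryos and 586 and 343 CPM in WT embryos. Cdk4 fell with log2 ratios of -3.67 ± 0.54 in KO (adjusted p = 9.59e-04) and -3.61 ± 0.54 in WT (adjusted p = 0.00108), yet its adult level stayed above 28 CPM in every library. Ccnd3 had 84.5 and 41.96 CPM in KO adults and 62.8 and 53.1 CPM in WT adults, against 555 and 445 CPM in KO embryos and 604 and 381 CPM in WT embryos. It fell with log2 ratios of -2.98 ± 0.52 in KO (adjusted p = 0.00204) and -3.09 ± 0.52 in WT (adjusted p = 0.00194). Ccnd2 had 114 and 75.4 CPM in KO adults and 119 and 123 CPM in WT adults, against 514 and 341 CPM in KO embryos and 468 and 349.8 CPM in WT embryos. It fell with log2 ratios of -2.18 ± 0.46 in KO (adjusted p = 0.00521) and -1.76 ± 0.45 in WT (adjusted p = 0.0137). Ccnd1 had 140.1 and 51.6 CPM in KO adults and 91.7 and 52.1 CPM in WT adults, against 92.8 and 125 CPM in KO embryos and 80.6 and 99.4 CPM in WT embryos. Adults and embryos overlapped for Ccnd1, whose log2 ratios were -0.19 ± 0.54 in KO (adjusted p = 0.797) and -0.32 ± 0.54 in WT (adjusted p = 0.658). The 95% intervals were -1.38 to 1.01 in KO and -1.52 to 0.88 in WT. The sign of the Ccnd1 ratio was not stable. In KO it was 0.38 without KO adult replicate 2 and 0.04 without KO e13.5 replicate 2, and in WT it was 0.05 without WT adult replicate 2. The Ccnd2 call was lost in WT without WT adult replicate 1, WT adult replicate 2 or WT e13.5 replicate 1 (adjusted p = 0.13, 0.13 and 0.0734 in that order) and in KO without KO adult replicate 2 (adjusted p = 0.06).

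The make-up of the D-type cyclins differed between the ages accordingly. Per kb of merged exons, Ccnd1 made up 57.8% and 46.1% in KO adults and 49.6% and 36.7% in WT adults, against 14.3% and 23.4% in KO at e13.5 and 12.6% and 20.7% in WT at e13.5 of the summed level of the 3 genes. Ccnd3 made up 18.7% and 20.1% in KO adults and 18.2% and 20.1% in WT adults, against 45.96% and 44.7% in KO at e13.5 and 50.7% and 42.7% in WT at e13.5. Ccnd1 therefore took a larger share, and Ccnd3 a smaller one, in every adult library than in any embryonic library. Ccnd2 took 23.5% to 43.2% in adults and 31.9% to 39.7% at e13.5, and overlapped. Such shares are ratios within a library and do not move with the scaling between libraries. Cdk6, the other kinase of D-type cyclins, had 12.2 and 10.01 CPM in KO adults and 18.2 and 14.4 CPM in WT adults, against 23.4 and 44.99 CPM in KO embryos and 24.7 and 57.2 CPM in WT embryos. Cdk6 had log2 ratios of -1.62 ± 0.54 in KO, where it passed (adjusted p = 0.0358), and -1.33 ± 0.53 in WT (adjusted p = 0.072). The interaction of genotype and age was -0.30 ± 0.74 (adjusted p = 1). The KO call was lost without any of KO adult replicate 1, KO adult replicate 2, WT adult replicate 1, WT adult replicate 2 and KO e13.5 replicate 2 (adjusted p = 0.116, 0.18, 0.0672, 0.0676 and 0.165 in that order). In WT it was gained without WT e13.5 replicate 1 (adjusted p = 0.0304), with upper quartile scaling (adjusted p = 0.0462) and with DESeq2 (adjusted p = 0.0479).

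**Figure D4:**
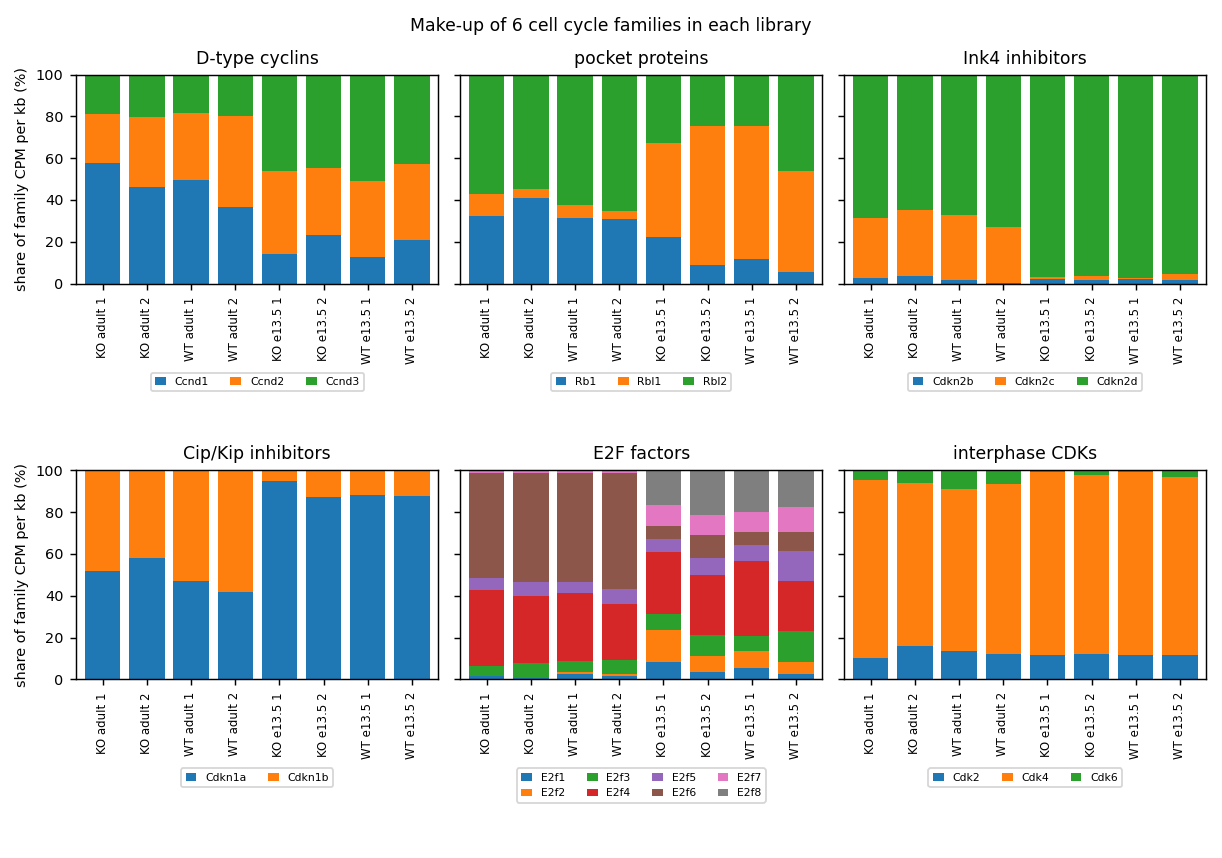
Share of each family's summed CPM per kb of merged exons (y axis, %) taken by each gene in each of the 8 libraries, for 6 families. Ccnd1, Rb1, Cdkn1b, Cdkn2c and E2f6 take larger shares in every adult library on the left than in any e13.5 library on the right, while among the interphase CDKs Cdk4 takes 77.4% to 87.7% throughout.

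Among the activating E2F factors, E2f2 fell with age and E2f1 and E2f3 did not pass. E2f1 had 1.65 and 0.663 CPM in KO adults and 2.79 and 1.45 CPM in WT adults, against 4.06 and 2.06 CPM in KO embryos and 2.67 and 2.17 CPM in WT embryos. The ages overlapped in WT. E2f1 had log2 ratios of -1.39 ± 0.72 in KO (adjusted p = 0.142) and -0.19 ± 0.70 in WT (adjusted p = 0.853), so neither passed. In WT its sign changed without WT adult replicate 2 (0.23) or WT e13.5 replicate 1 (0.10). E2f2 had 0.461 and 0.331 CPM in KO adults and 1.11 and 1.65 CPM in WT adults, against 11.4 and 7.48 CPM in KO embryos and 6.27 and 6.82 CPM in WT embryos. It fell with log2 ratios of -4.55 ± 0.63 in KO (adjusted p = 6.94e-04) and -2.24 ± 0.55 in WT (adjusted p = 0.0112). In WT the E2f2 call was lost without WT adult replicate 1 or WT adult replicate 2 (adjusted p = 0.129 and 0.0698 in that order). E2f3 had 9.55 and 12.5 CPM in KO adults and 10.1 and 10.3 CPM in WT adults, against 6.38 and 10.5 CPM in KO embryos and 6.13 and 20.3 CPM in WT embryos. Over both genotypes its adult levels lay within its embryonic range, whose upper end was WT e13.5 library 2, while KO adult library 2 lay above both KO embryos. Its log2 ratios were 0.38 ± 0.59 in KO (adjusted p = 0.624) and -0.38 ± 0.59 in WT (adjusted p = 0.636). Its WT sign changed without WT e13.5 replicate 2 (0.75), the library with the highest E2f3 level. Tfdp1, a dimer partner of the activating E2F factors, had 29.3 and 29.4 CPM in KO adults and 25.7 and 24.9 CPM in WT adults, against 41.4 and 41.2 CPM in KO embryos and 39.7 and 39.3 CPM in WT embryos. The libraries of each group of Tfdp1 lay within 1 CPM of each other and adults did not overlap with embryos, but its log2 ratios of -0.49 ± 0.37 in KO (adjusted p = 0.303) and -0.64 ± 0.37 in WT (adjusted p = 0.197) did not pass.

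Among the remaining drivers, Cdc25b, a phosphatase that starts CDK1 activation, had 5.20 and 3.58 CPM in KO adults and 4.83 and 3.17 CPM in WT adults, against 27.5 and 30.3 CPM in KO embryos and 25.4 and 30.2 CPM in WT embryos. Cdc25b fell with log2 ratios of -2.72 ± 0.47 in KO (adjusted p = 0.00207) and -2.79 ± 0.47 in WT (adjusted p = 0.00203). Cdc25a, which acts on CDK2 and CDK1, had 7.64 and 5.37 CPM in KO adults and 6.17 and 5.51 CPM in WT adults, against 17.9 and 13.8 CPM in KO embryos and 16.8 and 14.9 CPM in WT embryos. Cdc25a fell with smaller log2 ratios of -1.28 ± 0.45 in KO (adjusted p = 0.0438) and -1.44 ± 0.45 in WT (adjusted p = 0.0306). The call of Cdc25a was lost in WT without WT adult replicate 1, WT adult replicate 2 or WT e13.5 replicate 1 (adjusted p = 0.176, 0.228 and 0.104 in that order) and with no filter (adjusted p = 0.0947). In KO it was lost without any one of the libraries other than WT e13.5 (adjusted p = 0.0901, 0.221, 0.105, 0.108, 0.158 and 0.0528 without KO adult 1, KO adult 2, WT adult 1, WT adult 2, KO e13.5 1 and KO e13.5 2 in that order), with no filter (adjusted p = 0.114) and in the 4 KO libraries alone (adjusted p = 0.0763).

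The CDK inhibitors went both ways with age. Cdkn1a, which encodes p21 (ENSMUSG00000023067, chromosome 17, 29090976 to 29100727), was lower in adults, with 28.5 and 32.6 CPM in KO adults and 23.2 and 16.5 CPM in WT adults, against 272 and 84.6 CPM in KO embryos and 130.2 and 81.2 CPM in WT embryos. KO e13.5 library 1 stood far above the other embryonic libraries. Cdkn1a fell with log2 ratios of -2.54 ± 0.59 in KO (adjusted p = 0.00836) and -2.41 ± 0.59 in WT (adjusted p = 0.0111). The WT call was lost without WT adult replicate 1 or WT adult replicate 2 (adjusted p = 0.0624 and 0.109 in that order). The KO call was lost without KO adult replicate 1, KO adult replicate 2 or KO e13.5 replicate 1 (adjusted p = 0.0695, 0.0625 and 0.0604 in that order). The KO ratio was -1.45 without KO e13.5 replicate 1 and -3.16 without KO e13.5 replicate 2. Cdkn1b, which encodes p27, had 33.9 and 30.03 CPM in KO adults and 33.5 and 29.2 CPM in WT adults, against 19.1 and 16.03 CPM in KO embryos and 22.6 and 14.3 CPM in WT embryos. Every adult library of Cdkn1b lay above every embryonic one, but the log2 ratios of 0.86 ± 0.42 in KO (adjusted p = 0.121) and 0.76 ± 0.42 in WT (adjusted p = 0.17) did not pass. Within a genotype, ages without overlap were common among all tested genes. Per kb, Cdkn1b made up 48.1% and 41.8% in KO adults and 53.000% and 58.1% in WT adults, against 5.20% and 12.9% in KO at e13.5 and 11.9% and 12.1% in WT at e13.5 of the summed level of Cdkn1a and Cdkn1b.

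The INK4 genes split in the same manner. Cdkn2c, which encodes p18 (ENSMUSG00000028551, chromosome 4, 109660876 to 109667189), had 11.9 and 9.35 CPM in KO adults and 9.90 and 8.75 CPM in WT adults, against 1.69 and 2.33 CPM in KO embryos and 1.38 and 2.41 CPM in WT embryos. All adult libraries lay above all embryonic ones, and Cdkn2c rose with log2 ratios of 2.39 ± 0.53 in KO (adjusted p = 0.00668) and 2.29 ± 0.53 in WT (adjusted p = 0.00847), although in WT not without WT adult replicate 1 (adjusted p = 0.0628). Cdkn2d, which encodes p19 (ENSMUSG00000096472, chromosome 9, 21288410 to 21291407), had 16.7 and 11.1 CPM in KO adults and 12.6 and 13.9 CPM in WT adults, against 132 and 61.4 CPM in KO embryos and 92.5 and 51.2 CPM in WT embryos. Cdkn2d fell with log2 ratios of -2.80 ± 0.54 in KO (adjusted p = 0.0034) and -2.44 ± 0.53 in WT (adjusted p = 0.00658), and in both genotypes library 1 exceeded library 2 at e13.5. In WT the Cdkn2d call was lost without WT adult replicate 1 or WT adult replicate 2 (adjusted p = 0.072 and 0.0632 in that order). Its ratio was -1.81 in WT without WT e13.5 replicate 1 and -2.13 in KO without KO e13.5 replicate 1. Cdkn2b, which encodes p15, was near the detection limit, with 0.527 and 0.530 CPM in KO adults and 0.291 and 0.0689 CPM in WT adults, against 2.75 and 0.989 CPM in KO embryos and 1.71 and 0.861 CPM in WT embryos. Its log2 ratios of -1.80 ± 0.92 in KO (adjusted p = 0.137) and -2.75 ± 1.0 in WT (adjusted p = 0.0525) did not pass. In WT it passed in 8 of the 17 alternatives that gave it a value, with adjusted p between 0.0284 and 0.0498. Per kb, Cdkn2c made up 28.8% and 31.8% in KO adults and 30.9% and 26.8% in WT adults, against 0.725% and 2.14% in KO at e13.5 and 0.851% and 2.64% in WT at e13.5 of the 3 INK4 genes measured. Cdkn2d made up most of the rest.

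Of the pocket proteins, which hold E2F factors in check, Rb1 had 13.9 and 23.3 CPM in KO adults and 21.9 and 20.4 CPM in WT adults, against 1.13 and 1.19 CPM in KO embryos and 0.830 and 2.51 CPM in WT embryos (ENSMUSG00000022105, chromosome 14, 73183673 to 73325822). The adult libraries lay far above the embryonic ones, and Rb1 rose with log2 ratios of 4.0 ± 0.64 in KO (adjusted p = 0.00141) and 3.64 ± 0.62 in WT (adjusted p = 0.00211). Without WT e13.5 replicate 2 the WT ratio was 4.68. Rbl2, which encodes p130, the pocket protein of quiescent cells (ENSMUSG00000031666, chromosome 8, 91070057 to 91123844), had 30.8 and 39.3 CPM in KO adults and 55.1 and 54.4 CPM in WT adults, against 2.06 and 4.23 CPM in KO embryos and 2.21 and 26.8 CPM in WT embryos. WT e13.5 library 2 alone stood far above the other embryonic libraries. Rbl2 rose in KO, with a log2 ratio of 3.47 ± 0.95 (adjusted p = 0.0167), and had 1.91 ± 0.88 in WT (adjusted p = 0.11). The interaction was 1.55 ± 1.22 (adjusted p = 1). Without WT e13.5 replicate 2 the WT ratio was 4.65 (adjusted p = 6.41e-04). It also passed in WT with no filter (adjusted p = 0.00297), with DESeq2 (adjusted p = 0.0245) and with a replicate term (adjusted p = 0.0332, or 0.00533 with one for each age). The KO call was lost without KO adult replicate 1, KO adult replicate 2 or KO e13.5 replicate 1 (adjusted p = 0.0508, 0.0702 and 0.0707 in that order), and the KO ratio was 4.08 without KO e13.5 replicate 2.

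Rbl1, which encodes p107 and is itself a known E2F target, had 4.55 and 2.59 CPM in KO adults and 4.42 and 2.69 CPM in WT adults, against 2.25 and 9.02 CPM in KO embryos and 4.52 and 22.1 CPM in WT embryos. Its log2 ratios of -0.67 ± 0.84 in KO (adjusted p = 0.539) and -1.90 ± 0.86 in WT (adjusted p = 0.104) did not pass, and WT e13.5 library 2 was again the highest. In WT it passed without WT e13.5 replicate 1 (adjusted p = 0.0268) and with no filter (adjusted p = 0.0278), and in KO the sign changed without KO e13.5 replicate 2 (0.66). Per kb, Rbl1 made up 10.6% and 4.54% in KO adults and 6.33% and 4.06% in WT adults, against 44.9% and 66.5% in KO at e13.5 and 63.6% and 48.3% in WT at e13.5 of the pocket protein level. Rb1 made up 32.3% and 40.8% in KO adults and 31.2% and 30.7% in WT adults, against 22.4% and 8.72% in KO at e13.5 and 11.6% and 5.46% in WT at e13.5. Adult libraries thus held mainly Rbl2 and Rb1, and embryonic libraries mainly Rbl1 and Rbl2 in shares that varied between libraries. The library preparation is not stated to keep strand, and exons of Ccna2, Ccnd1, Ccnd2, Ccnd3, Ccne2, Cdk2, Cdk4, Cdk6, Cdc25b, Cdc25c, Cdkn1a, Rb1, Rbl2, E2f5, E2f7, E2f8 and Meis1 overlap a gene on the other strand, so reads there cannot be assigned for certain. Exons of Rb1 overlap those of Rcbtb2 and Lpar6 in this way. Lpar6 had 14.4 and 7.76 CPM in KO adults and 8.91 and 8.20 CPM in WT adults, against 71.2 and 24.4 CPM in KO at e13.5 and 32.4 and 24.04 CPM in WT at e13.5, the opposite direction to Rb1. Rbl2 overlaps Aktip in the same way, which had 47.96 and 37.1 CPM in KO adults and 44.8 and 48.4 CPM in WT adults, against 28.6 and 21.8 CPM in KO at e13.5 and 41.9 and 24.6 CPM in WT at e13.5, with no excess in WT e13.5 library 2.

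The E2F factors that repress transcription moved in opposite directions. E2f6, a repressor that acts without pocket proteins (ENSMUSG00000057469, chromosome 12, 16810963 to 16839742), had 104 and 99.2 CPM in KO adults and 97.2 and 93.4 CPM in WT adults, against 5.38 and 12.1 CPM in KO embryos and 5.71 and 12.8 CPM in WT embryos. The 4 adult libraries lay close together and far above the embryonic ones. E2f6 rose with log2 ratios of 3.53 ± 0.57 in KO (adjusted p = 0.00148) and 3.36 ± 0.57 in WT (adjusted p = 0.00199). Without WT e13.5 replicate 2 the WT ratio was 4.08, and without KO e13.5 replicate 2 the KO ratio was 4.23. E2f8 (ENSMUSG00000046179, chromosome 7, 48866429 to 48881596), an atypical repressor made in S phase, had 0.988 and 0.994 CPM in KO adults and 0.815 and 0.758 CPM in WT adults, against 13.7 and 22.9 CPM in KO embryos and 16.7 and 24.2 CPM in WT embryos. E2f8 fell with log2 ratios of -4.20 ± 0.55 in KO (adjusted p = 5.31e-04) and -4.69 ± 0.56 in WT (adjusted p = 4.22e-04), below 1 CPM in every adult library. Its close relative E2f7 (ENSMUSG00000020185, chromosome 10, 110745439 to 110787384) had 1.98 and 1.66 CPM in KO adults and 1.98 and 2.07 CPM in WT adults, against 13.9 and 16.1 CPM in KO embryos and 13.503 and 26.996 CPM in WT embryos. E2f7 fell with log2 ratios of -3.04 ± 0.53 in KO (adjusted p = 0.00207) and -3.32 ± 0.53 in WT (adjusted p = 0.00154), and without WT e13.5 replicate 2 the WT ratio was -2.71.

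E2f4, which works with p130 and p107 in resting cells, had 32.3 and 26.4 CPM in KO adults and 26.1 and 19.8 CPM in WT adults, against 11.1 and 13.8 CPM in KO embryos and 13.6 and 14.5 CPM in WT embryos. It rose in KO with a log2 ratio of 1.23 ± 0.42 (adjusted p = 0.0391) and had 0.71 ± 0.41 in WT (adjusted p = 0.197). The interaction was 0.53 ± 0.58 (adjusted p = 1). The KO call of E2f4 was lost without any one of KO adult replicates 1 and 2, WT adult replicates 1 and 2 and KO e13.5 replicates 1 and 2 (adjusted p = 0.15, 0.0913, 0.0954, 0.0944, 0.155 and 0.0727 in that order). It was also lost with no filter, with median-of-ratios or upper quartile scaling and in the 4 KO libraries alone (adjusted p = 0.106, 0.057, 0.0715 and 0.106). E2f5 had 3.69 and 4.11 CPM in KO adults and 3.09 and 3.79 CPM in WT adults, against 1.69 and 2.85 CPM in KO embryos and 2.07 and 6.47 CPM in WT embryos. Its log2 ratios were 0.77 ± 0.65 in KO (adjusted p = 0.354) and -0.32 ± 0.64 in WT (adjusted p = 0.718). The WT sign changed without WT e13.5 replicate 2 (0.75). Per kb, E2f6 made up 50.4% and 52.2% in KO adults and 52.2% and 55.4% in WT adults, against 6.21% and 10.96% in KO at e13.5 and 6.48% and 9.02% in WT at e13.5 of the summed level of the 8 E2F genes. E2f8 made up 0.499% and 0.545% in KO adults and 0.455% and 0.468% in WT adults, against 16.4% and 21.6% in KO at e13.5 and 19.7% and 17.7% in WT at e13.5. Wee1, the kinase that blocks CDK1 and a known clock-controlled gene in mouse liver, had 14.7 and 11.3 CPM in KO adults and 32.1 and 38.1 CPM in WT adults, against 11.6 and 9.54 CPM in KO embryos and 8.99 and 20.1 CPM in WT embryos. Its log2 ratios of 0.30 ± 0.49 in KO (adjusted p = 0.643) and 1.27 ± 0.49 in WT (adjusted p = 0.0657) did not pass. In WT it passed with DESeq2 (adjusted p = 0.0375), with a replicate term (adjusted p = 0.0484, or 0.0369 with one for each age) and without WT e13.5 replicate 2 (adjusted p = 0.0146).

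Meis1, a homeobox factor that in mouse hearts promotes withdrawal from the cell cycle after birth (ENSMUSG00000020160, chromosome 11, 18879817 to 19018985), had 12.3 and 16.4 CPM in KO adults and 15.1 and 13.8 CPM in WT adults, against 29.8 and 47.8 CPM in KO embryos and 32.2 and 51.1 CPM in WT embryos. All adult libraries lay below all embryonic ones, and Meis1 fell with log2 ratios of -1.44 ± 0.46 in KO (adjusted p = 0.0304) and -1.53 ± 0.46 in WT (adjusted p = 0.0253). The WT call was lost without WT adult replicate 1, WT adult replicate 2 or WT e13.5 replicate 2 (adjusted p = 0.154, 0.192 and 0.0842 in that order). The KO call was lost without KO adult replicate 1, KO adult replicate 2, WT adult replicate 1, WT adult replicate 2 or KO e13.5 replicate 2 (adjusted p = 0.16, 0.0931, 0.072, 0.0732 and 0.13 in that order) and with no filter (adjusted p = 0.0503). Its paralog Meis2 (ENSMUSG00000027210, chromosome 2, 115863064 to 116065839) had 14.8 and 18.03 CPM in KO adults and 22.4 and 17.01 CPM in WT adults, against 22.4 and 61.6 CPM in KO embryos and 27.6 and 54.4 CPM in WT embryos. Meis2 had log2 ratios of -1.36 ± 0.57 in KO (adjusted p = 0.0779) and -1.06 ± 0.56 in WT (adjusted p = 0.158) and did not pass, and at e13.5 library 2 exceeded library 1 for both genes in both genotypes. In KO it passed with upper quartile scaling (adjusted p = 0.0435), with DESeq2 (adjusted p = 0.0304) and without KO e13.5 replicate 1, WT e13.5 replicate 1 or WT e13.5 replicate 2 (adjusted p = 0.0273, 0.0442 and 0.0437 in that order).

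Other genes of the cell cycle, listed by role, fell with the drivers. Of 25 DNA replication genes, 24 fell and 0 rose in KO, and 24 fell and 0 rose in WT. Tyms, for thymidylate synthase, had 2.37 and 2.39 CPM in KO adults and 2.15 and 2.34 CPM in WT adults, against 76.4 and 55.3 CPM in KO embryos and 52.9 and 40.9 CPM in WT embryos. Its log2 ratios were -4.79 ± 0.48 in KO (adjusted p = 2.30e-04) and -4.38 ± 0.47 in WT (adjusted p = 3.20e-04). The origin licensing factor gene Cdc6 fell with log2 ratios of -5.66 ± 0.62 in KO (adjusted p = 2.78e-04) and -4.90 ± 0.60 in WT (adjusted p = 4.59e-04). The ribonucleotide reductase subunit gene Rrm1 fell with -3.38 ± 0.42 in KO (adjusted p = 4.45e-04) and -3.37 ± 0.42 in WT (adjusted p = 4.95e-04). The exception in both genotypes was Gmnn, for the licensing inhibitor geminin, with log2 ratios of -0.65 ± 0.47 in KO (adjusted p = 0.277) and -0.42 ± 0.46 in WT (adjusted p = 0.49). Of 26 mitosis genes, 26 fell in KO and 25 in WT. The spindle protein gene Prc1 had log2 ratios of -5.93 ± 0.48 in KO (adjusted p = 1.62e-04) and -4.93 ± 0.45 in WT (adjusted p = 2.29e-04). Nusap1 had -6.18 ± 0.52 in KO (adjusted p = 1.64e-04) and -5.23 ± 0.49 in WT (adjusted p = 2.51e-04), and the CDK subunit gene Cks2 -7.44 ± 0.74 in KO (adjusted p = 2.30e-04) and -7.72 ± 0.75 in WT (adjusted p = 2.52e-04). Foxm1, for a transcription factor of mitotic genes, passed in KO (-2.42 ± 0.81, adjusted p = 0.0367) and not in WT (-2.12 ± 0.79, adjusted p = 0.0573).

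The remaining lists were mixed, and their difference from the replication and mitosis lists was not tested. Among all tested genes 20.5% rose and 20.9% fell in KO, and 17.8% rose and 21.1% fell in WT. Of the 14 other cyclins and CDKs, most of them with roles in transcription, 3 rose and 0 fell in each genotype, a share of risers near that of all tested genes. Ccng1, a cyclin gene induced by p53, had 776 and 1099 CPM in KO adults and 989.6 and 987 CPM in WT adults, against 35.003 and 99.6 CPM in KO embryos and 38.8 and 129 CPM in WT embryos. It rose with log2 ratios of 3.80 ± 0.73 in KO (adjusted p = 0.00345) and 3.56 ± 0.73 in WT (adjusted p = 0.00482). The transcriptional kinase gene Cdk13 rose with 3.10 ± 0.56 in KO (adjusted p = 0.00251) and 3.31 ± 0.56 in WT (adjusted p = 0.00204). Cdk8, for a kinase of the Mediator complex, passed in WT with log2 ratios of 1.48 ± 0.55 in KO (adjusted p = 0.0545) and 1.57 ± 0.55 in WT (adjusted p = 0.0468). Ccnk, for the cyclin of CDK12 and CDK13, passed in KO with 1.71 ± 0.43 in KO (adjusted p = 0.0113) and 0.66 ± 0.42 in WT (adjusted p = 0.228). Of 6 genes for MuvB subunits and partners, 1 rose and 3 fell in KO, and 1 rose and 2 fell in WT. The gene that rose in both was Tfdp2, another E2F dimer partner, with 67.4 and 92.3 CPM in KO adults and 127 and 150.5 CPM in WT adults, against 16.001 and 17.6 CPM in KO embryos and 12.9 and 22.003 CPM in WT embryos. Its log2 ratios were 2.25 ± 0.44 in KO (adjusted p = 0.00389) and 2.99 ± 0.46 in WT (adjusted p = 0.00122). Rbbp4 fell with log2 ratios of -1.82 ± 0.43 in KO (adjusted p = 0.00929) and -1.70 ± 0.43 in WT (adjusted p = 0.0134) and Lin9 with -2.52 ± 0.53 in KO (adjusted p = 0.00521) and -1.97 ± 0.52 in WT (adjusted p = 0.0151). Lin37 passed in KO with -1.82 ± 0.57 in KO (adjusted p = 0.0293) and -1.50 ± 0.57 in WT (adjusted p = 0.0598). Of 10 other brakes on the cycle, 9 were tested, and 2 rose and 2 fell in each genotype, shares near those of all tested genes. The CDK1-inhibiting kinase gene Pkmyt1 fell with log2 ratios of -4.43 ± 0.58 in KO (adjusted p = 5.31e-04) and -3.46 ± 0.55 in WT (adjusted p = 0.00144). The phosphatase gene Cdkn3 fell with -7.07 ± 0.99 in KO (adjusted p = 7.34e-04) and -4.97 ± 0.85 in WT (adjusted p = 0.00209). Fbxw7, for the F-box protein that marks cyclin E for destruction, rose with log2 ratios of 2.19 ± 0.44 in KO (adjusted p = 0.00446) and 2.33 ± 0.45 in WT (adjusted p = 0.00354). The other gene of the list that rose was the antiproliferative Tob1 in KO, with 3.48 ± 0.97 in KO (adjusted p = 0.0184) and 1.24 ± 0.89 in WT (adjusted p = 0.291). In WT it was the stress gene Gadd45a, with 1.35 ± 0.50 in KO (adjusted p = 0.0561) and 2.12 ± 0.52 in WT (adjusted p = 0.011).

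Cell type markers were also compared between the ages, where 41.4% of all tested genes were called in KO and 38.9% in WT. The 9 erythroid markers summed to 179.6 and 21.9 CPM in KO adults and 16.8 and 87.7 CPM in WT adults, against 160283 and 22832 CPM in KO at e13.5 and 43922 and 20183 CPM in WT at e13.5. All 9 of 9 were called lower in adults in both genotypes, and Hbb-y, Hba-x and Hbb-bh1 had 0 counts in every adult library. The 7 fibroblast markers, of which 1 rose and 2 fell in KO and 0 rose and 3 fell in WT, summed to 983 and 577 CPM in KO adults and 623 and 379 CPM in WT adults, against 376 and 3492 CPM in KO at e13.5 and 821 and 3616 CPM in WT at e13.5. In both genotypes embryonic library 2 stood far above library 1. The 7 endothelial markers, of which 3 rose in KO and 1 in WT, summed to 1866 and 937 CPM in KO adults and 1043 and 792 CPM in WT adults, against 457 and 543 CPM in KO at e13.5 and 450.3 and 691 CPM in WT at e13.5. The 10 cardiomyocyte markers, of which 3 rose and 2 fell in each genotype, summed to 59539 and 73925 CPM in KO adults and 78372 and 78024 CPM in WT adults, against 36365 and 13322 CPM in KO at e13.5 and 32998 and 22249 CPM in WT at e13.5. The 6 macrophage and leukocyte markers summed to 376 and 229 CPM in KO adults and 241 and 142 CPM in WT adults, against 92.1 and 71.6 CPM in KO at e13.5 and 52.9 and 59.1 CPM in WT at e13.5. The 5 smooth muscle and pericyte markers summed to 894 and 681 CPM in KO adults and 723 and 495 CPM in WT adults, against 2220.4 and 1135 CPM in KO at e13.5 and 1893 and 1074 CPM in WT at e13.5. Of these 5 genes, 1 rose and 2 fell in KO, and 2 rose and 2 fell in WT, so the sum does not describe each gene. The 4 epicardial markers summed to 31.9 and 11.7 CPM in KO adults and 29.8 and 39.8 CPM in WT adults, against 65.9 and 98.5 CPM in KO at e13.5 and 169 and 77.9 CPM in WT at e13.5. At e13.5 the 4 libraries came in the same order by the drivers as by the erythroid markers, from KO library 1 through WT library 1 and KO library 2 to WT library 2. The smooth muscle and pericyte, replication and mitosis lists gave that order too. Replication and mitosis genes belong to the cell cycle as the drivers do, so their order cannot tell cell types apart. The part of the other cell types in the driver levels was not tested.

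The comparison of KO with WT asked whether cell cycle regulators differ without LncSync at either age. With edgeR's quasi-likelihood test 0 of the 36 members passed at e13.5 (1 at an unadjusted p below 0.05) and 0 in adults (2 at an unadjusted p below 0.05), and DESeq2 also called 0 at each age. Among all tested genes 0.0722% were called at e13.5 and 0.0481% in adults, so a count of 0 among 36 is near this background. At e13.5, 16 of 20 driver ratios of KO over WT were above 0 (median 0.20), and 4 of 14 inhibitor ratios were above 0 (median -0.17; 6 of 14 with median-of-ratios or upper quartile scaling), beside a median of -0.07 over all tested genes. In adults 9 of 20 driver ratios (median -0.08) and 10 of 14 inhibitor ratios (median 0.08) were above 0, beside a median of 0.01 over all tested genes. These splits turned on single libraries. At e13.5, without KO e13.5 replicate 1, 9 of 20 driver ratios were above 0 (median -0.07), and without WT e13.5 replicate 2, 12 of 14 inhibitor ratios were (median 0.22). In adults 3 of 20 driver ratios were above 0 without KO adult replicate 1 (median -0.61), against 13 of 20 without KO adult replicate 2 (median 0.19) and 13 of 20 without WT adult replicate 1 (median 0.13). With median-of-ratios scaling the median over all genes at e13.5 was 0.05, a shift of 0.12 from the TMM value.

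**Figure D5:**
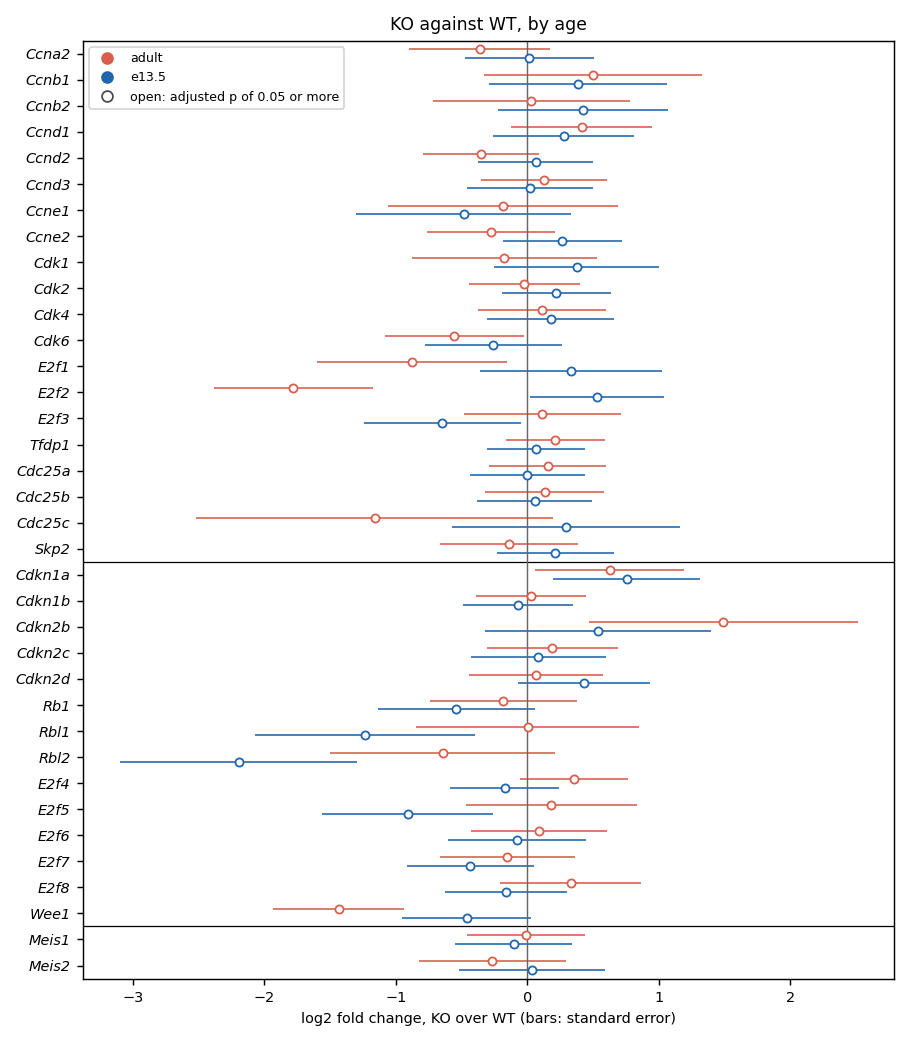
Log2 ratio of KO over WT (x axis; bars are standard errors) for the 36 members in adults and at e13.5. All points are open, since none passed, and the longest distances from 0 are those of Rbl2 at e13.5 and of E2f2 in adults.

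The 3 members with the smallest p at e13.5 were Rbl2 (-2.19 ± 0.90, adjusted p = 1), Rbl1 (-1.24 ± 0.84, adjusted p = 1) and E2f5 (-0.91 ± 0.65, adjusted p = 1). For each the KO and WT libraries overlapped, and WT e13.5 library 2 alone was high. Without WT e13.5 replicate 2 the ratios of KO over WT were 0.53 for Rbl2, 0.33 for Rbl1 and 0.15 for E2f5, each of the opposite sign. The libraries of KO and WT did not overlap for 3 members at e13.5, Ccne2, E2f2 and Tfdp1, all higher in KO. Among all tested genes 15.4% did not overlap in either direction. For the main mitotic kinase, Cdk1, the e13.5 ratio was 0.38 ± 0.63 with a 95% interval of -1.02 to 1.78. Such an interval is not adjusted for the number of genes and is not a limit of detection. The interval for Cdk2 was -0.71 to 1.15, for Cdkn1a -0.50 to 2.01 and for Meis1 -1.10 to 0.89.

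In adults the smallest p were those of E2f2, Wee1 and Cdkn2b. E2f2 had 0.461 and 0.331 CPM in the KO libraries, against 1.11 and 1.65 CPM in the WT libraries. The groups did not overlap, at a level of few counts, and the log2 ratio was -1.78 ± 0.60 (adjusted p = 1). Wee1 had 14.7 and 11.3 CPM in KO adults, against 32.1 and 38.1 CPM in WT adults. Both KO libraries lay below both WT libraries, with a log2 ratio of -1.43 ± 0.50 (adjusted p = 1). Its 95% interval, not adjusted for the number of genes, was -2.54 to -0.33. Cdkn2b had 0.527 and 0.530 CPM in KO adults, against 0.291 and 0.0689 CPM in WT adults (1.49 ± 1.02, adjusted p = 1). In all, 6 members lay higher and 6 lower in KO adults without overlap of the libraries, beside 27.9% of all tested genes without overlap, 14.5% being lower. Those lower were Ccnd2, Cdk6, E2f2, Rbl2, E2f7 and Wee1, and those higher were Tfdp1, Cdkn1a, Cdkn2b, E2f4, E2f6 and E2f8.

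Whether the genotypes differed in the change with age was tested by the interaction, in which 0 of 36 members passed (1 at an unadjusted p below 0.05; DESeq2 called 0) beside 0.00% of all tested genes. The smallest p belonged to E2f2 (-2.31 ± 0.79, adjusted p = 1), whose KO libraries lay above the WT libraries at e13.5 and below them in adults. Wee1 followed with -0.97 ± 0.69 (adjusted p = 1) and Rbl2 with 1.55 ± 1.22 (adjusted p = 1), and without WT e13.5 replicate 2 the value for Rbl2 was -1.18. For the drivers called in both genotypes the interaction ranged from -2.31 ± 0.79 for E2f2 to 0.30 ± 1.20 for Ccne1.

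Ordered by level per length, the members changed places between the ages. Per kb of merged exons the highest member at e13.5 was Cdk4, with 162 ± 44.8 CPM per kb in KO and 143 ± 52.7 in WT (SD, n = 2 here and below). Ccnb2 followed with 98.02 ± 43.8 in KO and 73.1 ± 28.9 in WT. The lowest was Rb1, with 0.192 ± 0.00728 in KO and 0.278 ± 0.198 in WT. In adults the first 2 places were held by Ccnd1, with 20.4 ± 13.3 in KO and 15.3 ± 5.95 in WT, and E2f6, with 17.9 ± 0.576 in KO and 16.8 ± 0.471 in WT. These did not differ beyond the spread of Ccnd1. The lowest adult member was Cdc25c, with 0.0268 ± 0.0379 in KO and 0.0592 ± 0.0837 in WT. Of 36 places, Cdk4, Ccnb2 and Ccnb1 held 3, 23 and 31 in KO adults and 4, 23 and 32 in WT adults, against 1, 2 and 5 in KO embryos and 1, 2 and 7 in WT embryos.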

How the data were processed

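RNA sequencing of 8 mouse heart libraries (Smart-seq2) was analysed from the table of estimated counts per gene that the authors deposited. RSEM and the mm10 build are named in the submitters' processing notes, with no version. Aligner and annotation: not given in the sources used here. The deposited expected counts were whole numbers and were used unscaled, although the table is named as normalised input, because column totals differ. No column was left unused (0). Of 51826 identifiers, 51633 matched GENCODE vM21, which gave symbols, exon lengths and overlaps.

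Genes were filtered with filterByExpr, scaled by TMM and tested with edgeR 4.0.16 (limma 3.58.1, R 4.3.3) by quasi-likelihood over all 8 libraries with 4 group means and no replicate term (4 residual degrees of freedom, common dispersion 0.212), with Benjamini-Hochberg adjustment over all 16623 genes tested and a threshold of 0.05. The step was also run on simulated counts in which few genes differed. Far more genes differed between the ages here, so that run does not check the scaling used between them. Errors after log2 ratios are standard errors worked back from the ratio and its quasi-likelihood F statistic, and are approximate. The 95% intervals are built from them and are unadjusted. Limits from 3 counts cover counting error only. Near-identical copies were sought with BLAST 2.17.0. Figures were drawn with matplotlib 3.10.9. DESeq2 1.42.0, other scalings and filters, replicate terms and leaving out each library were tried as alternatives.

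The members and lists were chosen with earlier results of these data known. Members are described with values in every library for the 8 drivers and 6 inhibitors of smallest p with age in WT, the Meis genes and the 3 of smallest p in each genotype comparison. With groups of 2, the ranges of the others are given as both values. Of each pathway list the 3 genes of smallest p in WT are named. Foxm1, Gmnn, Ccnk, Lin37, Tob1, Gadd45a, Lpar6 and Aktip were named after their values were seen.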

Additional observations from a re-analysis of the deposited data

How the results depend on the processing

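Over 81 member comparisons and 18 alternatives, 1341 of 1446 values kept their direction and side of the threshold, 60 kept the direction but no longer passed, 28 newly passed and 17 changed sign. A filter of at least 5 CPM in 2 libraries removed some members and gives no value for them. When one library was left out, with the lone sample of its group assumed to vary like the other groups, the count of changed drivers was 12 to 16 in KO and 11 to 15 in WT, and that of changed inhibitors 6 to 9 in KO and 4 to 10 in WT. Without WT adult replicate 1 the WT count of inhibitors was 4. Calls held under every alternative for 12 of 16 drivers and 6 of 9 inhibitors in KO, and for 11 of 15 drivers and 4 of 7 inhibitors in WT. KO against WT gave 0 called members at both ages and in the interaction under every alternative run. Replicate numbers recur across groups, and deviations from group means of same-numbered libraries correlated at 0.55 at e13.5 and 0.31 in adults across genes, and at 0.13 in KO and -0.03 in WT across ages. With 2 numbers this is a hint from the data, not the design. A replicate block over all libraries gave 16 changed drivers in KO and 15 in WT, and 9 changed inhibitors in KO and 10 in WT. With a replicate block within each age these were 15 and 14 drivers and 9 and 11 inhibitors (6 higher, 5 lower in WT). That block changed the sign for Ccnd1 (0.41 in KO, 0.38 in WT), Rbl1 in KO (1.07), E2f3 in WT (0.35) and E2f5 in WT (0.37). Leaving out one library changed the sign of some age ratios. Ccnd1 ranged from -1.07 to 0.38 in KO (above 0 without KO adult replicate 2, or at 0.04 without KO e13.5 replicate 2) and from -0.78 to 0.052 in WT (above 0 without WT adult replicate 2). Rbl1 ranged from -1.32 to 0.66 in KO (without KO e13.5 replicate 2). In WT, E2f1 ranged from -0.74 to 0.23 (without WT adult replicate 2, or at 0.10 without WT e13.5 replicate 1), E2f3 from -0.86 to 0.75 and E2f5 from -0.77 to 0.75 (both without WT e13.5 replicate 2). Without that library the e13.5 ratios of KO over WT also changed sign, in ranges of -2.94 to 0.53 for Rbl2, -2.55 to 0.33 for Rbl1 and -1.37 to 0.15 for E2f5, as did the Rbl2 interaction, with -1.18 to 2.29. None of these members passed in the comparison named, and the cause was not tested. Fits of only the 4 libraries compared do not exist for the interaction. Median-of-ratios scaling moved the median log2 ratio of all genes by -0.11 in KO with age, 0.12 in KO against WT at e13.5 and -0.13 in the interaction, and upper quartile scaling by -0.20 in KO and -0.13 in WT with age. Over all genes, KO against WT gave 10 higher and 2 lower at e13.5 and 7 higher and 1 lower in adults, against 32 and 55 at e13.5 and 29 and 35 in adults with no filter, and 16 and 14 at e13.5 and 23 and 31 in adults with DESeq2. Levels under 1 CPM, as for Cdkn2b and Cdc25c in adults, rest on few counts.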

Other observations

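Genes outside the members gave some values on the genotype that no test passed. In adults, 17 of 26 mitosis genes had a log2 ratio of KO over WT below 0, with a median of -0.35, and for 9 of them both KO libraries lay below both WT libraries, where 14.5% of all tested genes did so. Genes of one list are not independent replicates, and this list was not examined with single libraries left out. Among the mitotic drivers the same ratio was 0.50 for Ccnb1, 0.03 for Ccnb2, -0.18 for Cdk1 and -1.16 for Cdc25c. For each of these drivers the KO and WT adult libraries overlapped. Cenpe, for a kinetochore motor, had 0.527 and 0.663 CPM in KO adults, against 2.44 and 1.72 CPM in WT adults (-1.80 ± 0.48, adjusted p = 0.852). Cenpf, for another kinetochore protein, had 5.60 and 6.76 CPM in KO adults, against 18.3 and 17.8 CPM in WT adults (-1.55 ± 0.42, adjusted p = 0.904). Neither passed edgeR's quasi-likelihood test, and both were picked after their values were seen.

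Cdkn1c, which encodes the Cip/Kip inhibitor p57 and is imprinted in mouse, had 17.3 and 21.8 CPM in the KO e13.5 libraries, against 19.2 and 193 CPM in the WT e13.5 libraries. WT e13.5 library 2, the library that is high in Rbl2, Rbl1 and E2f5, thus stood far above the other 3 embryonic libraries. Cdkn1c was also picked after its values were seen.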
